A study of Arabidopsis thaliana with 12 samples.

Results

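The Casparian strip genes described here were 9 loci of *Arabidopsis thaliana* chosen for their known role in building or guarding the Casparian strip. The rule used no measured value, but the choice was made with earlier results of these data known. They were *MYB36* (AT5G57620), *CASP1* (AT2G36100), *CASP2* (AT3G11550), *CASP4* (AT5G06200), *CASP5* (AT5G15290), *ESB1* (AT2G28670), *PER64* (AT5G42180), *SGN1* (AT1G61590) and *SGN3* (AT4G20140, also listed as *GSO1*). All 9 were among the 25207 genes tested, and the probe used for each was well above background on all 12 arrays. Whole roots of 7-day-old seedlings were measured on single-colour Agilent arrays, with 3 arrays per group from experiments that the labels call independent. The comparisons ask how these genes differed after 4 h in 150 mM NaCl and how they differed between *agb1* and wild-type roots.

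The 4 groups were *agb1-3* roots after 4 h in medium with 150 mM NaCl (*agb1* 4 h), *agb1-3* roots at 0 h of salt (*agb1* 0 h), Col-0 roots after the same 4 h (WT 4 h) and Col-0 roots at 0 h (WT 0 h). *agb1-3* is a T-DNA insertion line of *AGB1*, which encodes the Gβ subunit of the heterotrimeric G protein, and it is represented here by 1 allele in the Col-0 background. The labels give the untreated state as 0 h of salt, whereas the methods of the study describe it as 4 h in medium without added NaCl, and the names 0 h and 4 h are kept. If the labels hold, differences between 4 h and 0 h, called salt responses here, also contain 4 h in liquid medium, which cannot be told apart. Seedlings were grown on half-strength MS agar, treated in liquid MS medium and then separated from their shoots.

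The Casparian strip is a ring of lignin in the walls of endodermal cells that seals the space between neighbouring cells, so that water and ions such as sodium must pass through a cell on their way to the vasculature. In the endodermis the transcription factor MYB36 activates the genes of the strip, and the CASP proteins gather in the plasma membrane as a scaffold that marks where it will form. ESB1, a dirigent-domain protein, and the peroxidase PER64 act at this site in lignin deposition. The receptor-like kinase SGN3 and the receptor-like cytoplasmic kinase SGN1 belong to the signalling pathway that reads small peptides from the stele and watches whether the barrier is closed.

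Values are given as the log2 signal, which is the log2 of the background-corrected intensity minus the 75th percentile of that array, so that a log2 signal of 0 lies at the 75th percentile. Levels of different genes come from different probes and were not set against each other. The groups were compared in one limma model, and a difference is called where its p-value, adjusted by the Benjamini-Hochberg method over all genes tested, was below 0.05. *AGB1* (AT4G34460), the check of the labels, had a log2 signal of 0.39 to 0.88 on the *agb1* 4 h arrays and −0.10 to 0.63 on the *agb1* 0 h arrays, compared with 1.26 to 1.58 at WT 4 h and 1.42 to 1.64 at WT 0 h. The *agb1* arrays did not overlap the WT arrays. With its brighter probe *AGB1* differed from WT by −0.74 after 4 h, with an adjusted p of 0.112, and the 0 h difference of −1.2 had an adjusted p of 0.034. With the mean of both its probes these values were −0.30 and −0.37, neither of them called. The dimmer probe by itself therefore lay higher in *agb1* than in WT at both times, so the check rests on the brighter probe. The call at 0 h also needed every one of the WT 0 h arrays and, besides, replicate 2 of WT 4 h and replicate 3 of *agb1* 4 h, while over single arrays dropped the difference stayed between −1.52 and −1.13. Replicates 1 and 2 of *agb1* 0 h differed about as much as repeated spots of one probe do and were averaged to 1 sample, which left n = 2 for that group, 3 for each other group and 11 samples in the fit. A fit of all 12 arrays as 12 samples was run as an alternative. All replicate 1 arrays shared a slide, as did all replicate 3 arrays, and WT 0 h replicate 2 lay alone on a slide. The labels do not say whether independent experiments used separate seed batches or plates, and the p-values measure the spread between these samples only.

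*MYB36*, the regulator of the set, was higher after 4 h of salt in WT roots. Its log2 signal was 2.32, 2.06 and 1.78 on the *agb1* 4 h arrays and 1.12, 1.18 and 1.41 on the *agb1* 0 h arrays. It was 2.32, 2.30 and 1.81 on the WT 4 h arrays and 1.39, 1.43 and 1.44 on the WT 0 h arrays. Every 4 h array lay above every 0 h array of its genotype, and the 2 genotypes overlapped at both times. The difference between 4 h and 0 h was 0.77 in *agb1* (standard error 0.20, adjusted p = 0.0825) and 0.72 in WT (standard error 0.18, adjusted p = 0.0243), a 1.65-fold rise in WT. Only the second passed the threshold, yet the salt responses of the genotypes differed by 0.05, with a 95% confidence interval of −0.57 to 0.66. A second, dimmer probe of *MYB36*, also well above background on all 12 arrays, gave differences of 0.57 in *agb1* and 0.66 in WT. The call in WT was lost when any 1 of the 3 WT 0 h arrays was left out (0.71 to 0.73, adjusted p = 0.067 to 0.0759), and equally when WT 4 h replicate 1 (0.63, adjusted p = 0.0645) or replicate 2 of that group (0.65, adjusted p = 0.0873) was. It was also lost with normexp background correction (0.74, adjusted p = 0.0706) and with the slide as a block, a fit to which WT 0 h replicate 2 adds nothing (0.72, adjusted p = 0.119). The difference in *agb1* passed the threshold in the fit of 12 samples (0.81, adjusted p = 0.0192) and when WT 4 h replicate 3 was left out (0.77, adjusted p = 0.041).

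*CASP4* and *CASP5*, which encode scaffold proteins, had the largest salt responses of the 9 genes in both genotypes. *CASP4* had log2 signals of −0.02, 0.40 and 0.24 on the *agb1* 4 h arrays and −1.42, −1.37 and −2.57 on the *agb1* 0 h arrays. In WT roots the values were 0.23, 0.84 and 0.43 at WT 4 h and −1.51, −1.11 and −1.17 at WT 0 h. The 4 h arrays of both genotypes thus stood apart from all 0 h arrays, and *agb1* 0 h replicate 3 was the lowest array. *CASP4* rose 4.57-fold in *agb1* (log2 difference 2.19, standard error 0.33, adjusted p = 0.0153) and 3.39-fold in WT (1.76, standard error 0.29, adjusted p = 0.00439). Within single slides the difference was 1.4, 2.81 and 1.77 in *agb1* and 1.74 and 1.60 in WT. The call in WT held under every alternative run, with differences of 1.56 to 1.89. In *agb1* the difference was 1.6 without *agb1* 0 h replicate 3, which left 1 sample in that group. The call in *agb1* was lost without *agb1* 4 h replicate 2 (2.09, adjusted p = 0.0624), with normexp correction (2.06, adjusted p = 0.0863), with the slide block (2.15, adjusted p = 0.0678) and in a fit of the *agb1* arrays alone (2.19, adjusted p = 0.128).

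*CASP5* had log2 signals of 1.61, 0.78 and 0.51 on the *agb1* 4 h arrays and −1.30, −1.42 and −0.57 on the *agb1* 0 h arrays. In WT roots they were 1.03, 0.50 and 0.61 at WT 4 h and −0.71, −0.36 and −0.63 at WT 0 h. As for *CASP4*, no 0 h array reached the level of a 4 h array. *CASP5* rose 3.82-fold in *agb1* (log2 difference 1.93, standard error 0.34, adjusted p = 0.0283) and 2.43-fold in WT (1.28, standard error 0.31, adjusted p = 0.0203). These calls were narrower than that of *CASP4* in WT. In *agb1* the adjusted p was 0.0548 to 0.0585 when any 1 of the WT 0 h arrays was left out, and 0.0779 when *agb1* 4 h replicate 2 was. It was 0.0612 in the fit with a replicate block, 0.101 with the slide block, 0.115 with normexp correction and 0.172 in a fit of the *agb1* arrays alone. In WT it was 0.0702 and 0.0724 when replicate 1 and when replicate 3 of the 0 h arrays was left out, 0.0546 for replicate 1 of the 4 h arrays, 0.0625 with the slide block and 0.0658 with normexp correction. The salt responses of the genotypes differed by 0.43 for *CASP4* (95% confidence interval −0.55 to 1.42) and by 0.65 for *CASP5* (−0.39 to 1.69).

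**Figure D1:**
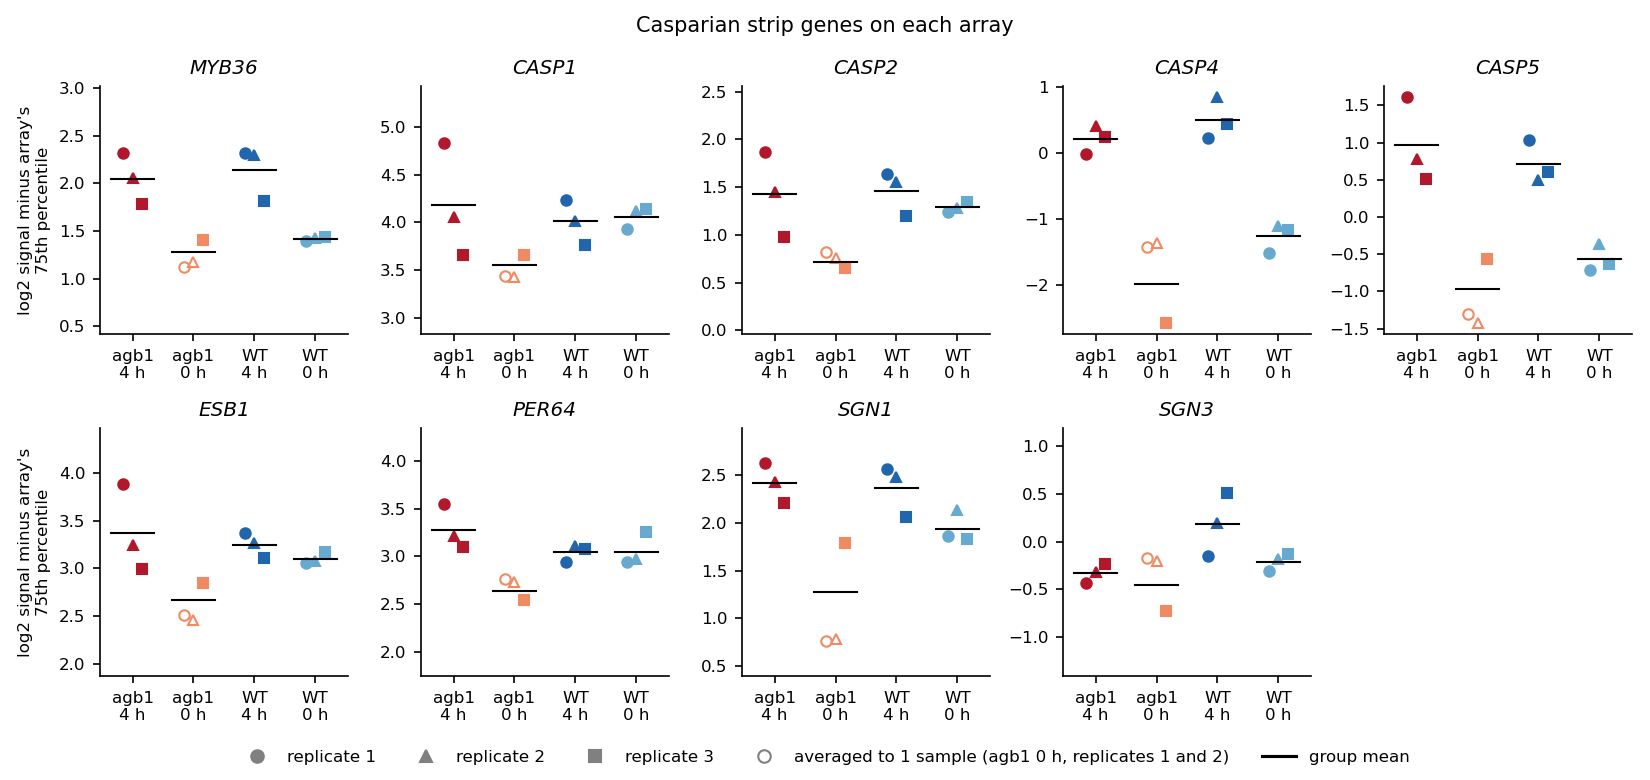
Log2 signal (log2 intensity minus the array's 75th percentile) of each gene on each of the 12 arrays, with a marker per array and a line at each group mean; open markers are the 2 *agb1* 0 h arrays counted as 1 sample, and the scale of each panel is its own. *CASP4*, *CASP5* and *MYB36* separate the 4 h arrays from the 0 h arrays in both genotypes, whereas for *CASP1*, *CASP2*, *ESB1*, *PER64* and *SGN1* the *agb1* 0 h arrays lie below all others, except that for *CASP1* the highest of them meets the lowest *agb1* 4 h array at 3.66.

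*CASP1* and *CASP2*, which also encode scaffold proteins, had smaller salt responses, and neither was called in the fit of 11 samples. *CASP1* had log2 signals of 4.83, 4.06 and 3.66 on the *agb1* 4 h arrays and 3.44, 3.43 and 3.66 on the *agb1* 0 h arrays, compared with 4.24, 4.02 and 3.76 at WT 4 h and 3.93, 4.12 and 4.14 at WT 0 h. The *agb1* 4 h arrays of *CASP1* met the *agb1* 0 h arrays at 3.66. *CASP2* had 1.87, 1.45 and 0.98 at *agb1* 4 h and 0.82, 0.76 and 0.65 at *agb1* 0 h, compared with 1.64, 1.55 and 1.20 at WT 4 h and 1.24, 1.28 and 1.34 at WT 0 h. For *CASP2* the *agb1* 0 h arrays lay below every array of the other 3 groups. The difference between 4 h and 0 h was 0.64 for *CASP1* and 0.71 for *CASP2* in *agb1* (adjusted p = 0.25 and 0.138), and −0.06 and 0.18 in WT (adjusted p = 0.901 and 0.588). With 12 samples *CASP2* passed the threshold in *agb1* (0.69, adjusted p = 0.0499).

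The lignin genes *ESB1* and *PER64* had almost level signals across the WT groups. *ESB1* had log2 signals of 3.88, 3.24 and 2.99 on the *agb1* 4 h arrays and 2.51, 2.46 and 2.85 on the *agb1* 0 h arrays, compared with 3.37, 3.26 and 3.11 at WT 4 h and 3.06, 3.08 and 3.17 at WT 0 h. *PER64* had 3.55, 3.21 and 3.10 at *agb1* 4 h and 2.76, 2.73 and 2.54 at *agb1* 0 h, compared with 2.94, 3.11 and 3.08 at WT 4 h and 2.94, 2.97 and 3.25 at WT 0 h. For both genes the *agb1* 0 h arrays were the lowest of all and did not overlap the *agb1* 4 h arrays. The salt response of *ESB1* was 0.70 in *agb1* (standard error 0.24, adjusted p = 0.145) and 0.14 in WT (standard error 0.22, adjusted p = 0.674). That of *PER64* was 0.64 in *agb1* (standard error 0.17, adjusted p = 0.0833) and −0.01 in WT (standard error 0.15, adjusted p = 0.968). In the fit of 12 samples the *agb1* responses were 0.76 for *ESB1* (adjusted p = 0.0399) and 0.61 for *PER64* (adjusted p = 0.0263). A second probe of *ESB1* was well above background on 0 of the 12 arrays and was not used.

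The surveillance genes *SGN1* and *SGN3* differed from each other in their pattern. *SGN1* had log2 signals of 2.63, 2.43 and 2.21 on the *agb1* 4 h arrays and 0.76, 0.78 and 1.79 on the *agb1* 0 h arrays. In WT roots it had 2.56, 2.48 and 2.06 at WT 4 h and 1.86, 2.14 and 1.83 at WT 0 h. The distance between *agb1* 0 h replicate 3 and the other 2 arrays of its group was the widest of any gene of the set besides *CASP4*. *SGN3* had −0.43, −0.32 and −0.24 at *agb1* 4 h and −0.17, −0.20 and −0.73 at *agb1* 0 h, compared with −0.15, 0.19 and 0.51 at WT 4 h and −0.31, −0.18 and −0.13 at WT 0 h. For *SGN3* neighbouring groups overlapped throughout, but the *agb1* 4 h arrays all lay below the WT 4 h arrays. The salt response of *SGN1* was 1.14 in *agb1* (standard error 0.29, adjusted p = 0.0758) and 0.42 in WT (standard error 0.26, adjusted p = 0.269), and that of *SGN3* was 0.13 in *agb1* (adjusted p = 0.745) and 0.39 in WT (adjusted p = 0.18). *SGN1* passed the threshold in *agb1* with 12 samples (1.31, adjusted p = 0.0164). Without *agb1* 0 h replicate 3, which left 1 sample in that group, its difference was 1.65.

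Counted together for the salt response in *agb1*, 2 of the 9 genes were called, both higher, where 2.11% of all genes were called and 1.41% were called higher. All 9 differences were above 0, as were 45.9% of all genes, and 7 of the 9 passed an unadjusted p of 0.05 with a higher value, compared with 10.9% of all genes. For 7 genes every *agb1* 4 h array lay above every *agb1* 0 h array, which held for 16.3% of all genes. The median difference was 0.71, compared with −0.04 over all genes tested. With 12 samples 7 of the 9 were called, all higher, where 13.1% of all genes were called and 6.63% were called higher, and *CASP1* and *SGN3* were the 2 that were not. Leaving out *agb1* 4 h replicate 2 gave 0 calls, where 0.524% of all genes were called. Any single WT 0 h array left out gave 1, where 0.932% to 1.05% of all genes were called.

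In WT 3 of the 9 genes were called for the salt response, all higher, where 20.1% of all genes were called and 8.84% were called higher. The differences of 7 genes were above 0, compared with 41.3% of all genes. The arrays of the 3 genes called did not overlap between 4 h and 0 h, which held in that direction for 17.7% of all genes. The median difference was 0.39, compared with −0.10 over all genes tested. Leaving out WT 0 h replicate 1, WT 0 h replicate 3 or WT 4 h replicate 1 left 1 call, that of *CASP4*. Of all genes 10.4%, 8.81% and 18.2% were called in these fits.

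**Figure D2:**
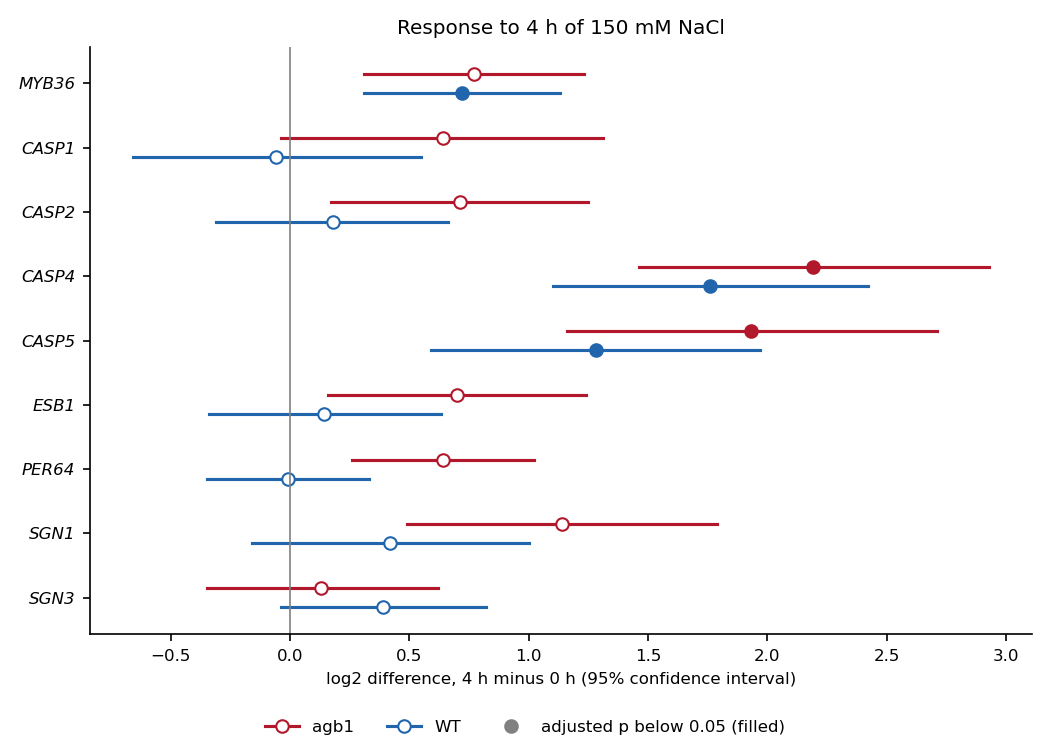
Salt response of each gene as the log2 difference between 4 h and 0 h with its 95% confidence interval, *agb1* above WT for each gene; filled points passed an adjusted p of 0.05 in limma. *CASP4* and *CASP5* lie farthest to the right in both genotypes, and the interval in *agb1* reaches below 0 only for *CASP1* and *SGN3*.

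Between the genotypes after 4 h of salt, 0 of the 9 genes were called, where 1.65% of all genes were called, and 1 of the 9 passed an unadjusted p of 0.05 with a lower value, compared with 6.03% of all genes. Of the differences 5 were above 0, as were 57.3% of all genes, and 4 below, with a median of 0.05 compared with 0.05 over all genes. With single arrays left out the median lay between −0.15 and 0.20, both reached by leaving out an *agb1* 4 h array (replicate 1 and replicate 3), and between 1 and 7 differences were above 0. The gene with the smallest p was *SGN3*, which was lower in *agb1* by −0.51 (standard error 0.19, 95% confidence interval −0.95 to −0.08, unadjusted p = 0.0254, adjusted p = 0.264), with values of −0.28, −0.75 and −0.51 within the 3 slides. Its arrays did not overlap between *agb1* 4 h and WT 4 h, which held in that direction for 7.08% of all genes. The confidence intervals of the other 8 genes included 0 and reached as low as −0.95 for *CASP4* and as high as 0.94 for *CASP5*. The number of genes past an unadjusted p of 0.05 was 0 with the slide block and when replicate 2 or 3 of WT 4 h or replicate 1 or 2 of *agb1* 4 h was dropped. Arrays of the same replicate number deviated together in this comparison, and with the replicate number as a block the adjusted p of *SGN3* was 0.306 and again 0 of the 9 were called.

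At 0 h also, 0 of the 9 genes were called between *agb1* and WT, where 1.88% of all genes were called, and 3 passed an unadjusted p of 0.05 with a lower value, compared with 10.4% of all genes. That number was 0 with the slide block and when the third WT 0 h array or the second WT 4 h array was dropped. It was 1 with normexp correction and when the second WT 0 h array or the second *agb1* 4 h array was dropped. It was 4 with median scaling, with 12 samples, and when *agb1* 0 h replicate 2 or *agb1* 4 h replicate 1 was dropped. All 9 differences were below 0, as were 49.9% of all genes, with a median of −0.44 compared with 0.00 over all genes. *PER64* had the smallest p, with a difference of −0.41 (standard error 0.17, adjusted p = 0.229), followed by *CASP2* at −0.57 (standard error 0.24, adjusted p = 0.237) and *SGN1* at −0.66 (standard error 0.29, adjusted p = 0.249). The other 6 differences lay between −0.72 for *CASP4* and −0.14 for *MYB36*. Several of these sizes turned on *agb1* 0 h replicate 3, without which *CASP4* differed by −0.13, *MYB36* by −0.27, *CASP5* by −0.79 and *SGN1* by −1.17. These values rest on 1 sample of *agb1* 0 h, the average of replicates 1 and 2. For 5 genes every *agb1* 0 h array lay below every WT 0 h array, which held for 20.4% of all genes. Within slide 1 the difference was above 0 for 2 of the 9 and within slide 3 for 1 of the 9.

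**Figure D3:**
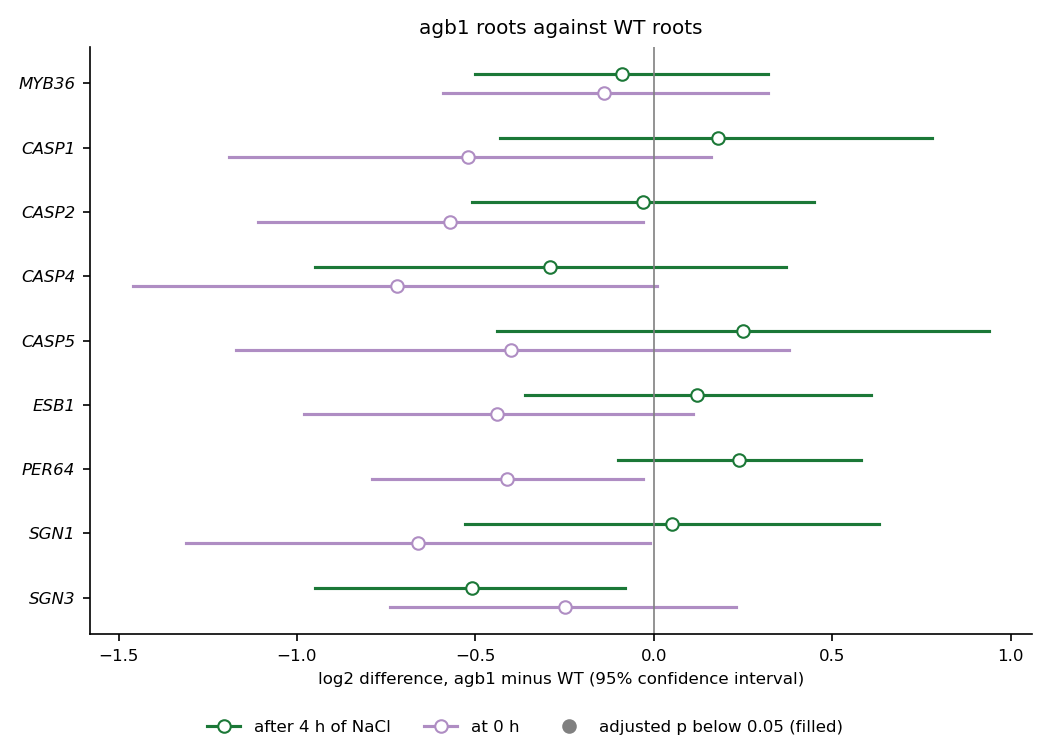
Log2 difference between *agb1* and WT for each gene with its 95% confidence interval, after 4 h of NaCl above 0 h for each gene. No point passed an adjusted p of 0.05; at 4 h the points lie on both sides of 0, and at 0 h all 9 lie below it.

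The interaction, that is the response to salt in *agb1* less the response in WT, tests whether the genotypes responded differently and was called for 0 of the 9 genes, where 0.179% of all genes were called. It was above 0 for 8 of the 9, as for 55.5% of all genes, with a median of 0.56 compared with 0.05 over all genes, and 1 gene passed an unadjusted p of 0.05 with a higher value, compared with 7.18% of all genes. That gene was *PER64*, at 0.65 (standard error 0.23, 95% confidence interval 0.14 to 1.16, adjusted p = 0.306), and *SGN3* was the gene below 0, at −0.26 (95% confidence interval −0.91 to 0.39). Within slide 1 the value was above 0 for 7 of the 9 genes with a median of 0.78, and within slide 3 for 6 of the 9 with a median of 0.20. Without *agb1* 4 h replicate 1 the median was 0.33. The number of genes past an unadjusted p of 0.05 was 4 without *agb1* 4 h replicate 3, 2 with 12 samples and 0 with normexp correction and with the slide block. These values share their arrays with the comparisons above and add no samples to them.

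In the order of the 4 group means, *agb1* 0 h was the lowest group for all 9 genes, as it was for 22.8% of all genes tested. For *CASP4*, *CASP5* and *MYB36* the next group was WT 0 h, whose arrays overlapped those of *agb1* 0 h, and both 4 h groups followed without overlapping WT 0 h. For *CASP1*, *CASP2*, *ESB1*, *PER64* and *SGN1* the arrays of *agb1* 0 h did not overlap those of the next group, and the 3 groups above it overlapped from each to the next. *SGN3* alone had overlapping neighbours throughout.

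**Figure D4:**
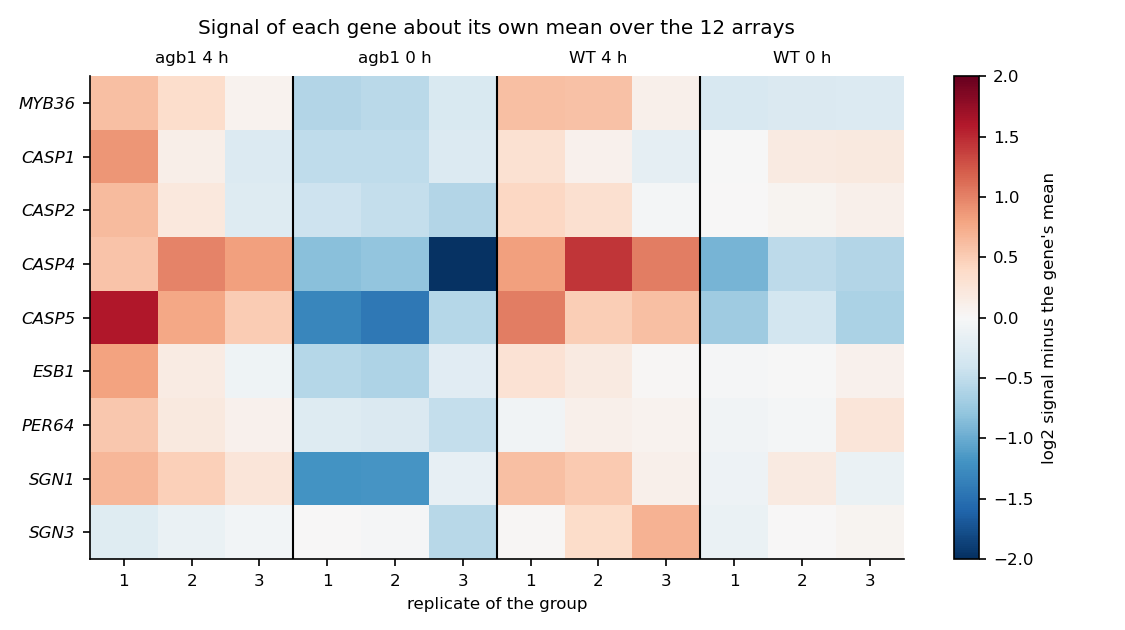
Log2 signal of each gene minus its own mean over the 12 arrays, in columns of 3 replicates per group; red is above and blue below the mean of the gene. All 9 genes were lowest on average at *agb1* 0 h, and *agb1* 4 h replicate 1 was the highest array of its group for all genes but *CASP4* and *SGN3*.

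The roots were measured whole, so that behind a lower signal fewer endodermal cells and less RNA per endodermal cell cannot be told apart. At 0 h 0 of the 9 genes were called between the genotypes. The 5 tested genes of the suberised endodermis, described below, all lay higher in *agb1* there (median 0.95, 0 called). Markers of some other cell types stood lower at *agb1* 0 h than at WT 0 h. Both cortex markers were called lower, with summed levels of 0.341 to 0.642 at *agb1* 0 h and 2.00 to 2.56 at WT 0 h in multiples of the 75th percentile intensity. Of 3 root cap markers 1 was called lower (summed 0.748 to 1.22 in *agb1* and 1.70 to 1.95 in WT). Of 6 shoot markers 0 were called while all 6 lay below 0 (4.57 to 6.64 and 10.5 to 14.0). None of the 6 markers of stele and vasculature was called (9.24 to 9.79 in *agb1* and 9.77 to 10.7 in WT), nor were the 3 root hair markers (8.27 to 19 and 12.4 to 13.3), the 3 meristem markers (0.582 to 0.764 and 0.467 to 0.525) or the non-hair marker (0.451 to 0.624 and 0.807 to 0.939). After salt the summed stele level was 11.1 to 13.2 at *agb1* 4 h and 11.3 to 12.8 at WT 4 h, with 1 marker called higher in each genotype, and the cortex markers, lower in WT, summed to 0.329 to 0.643 at WT 4 h. The non-hair marker (−0.73) and 1 root cap marker (−1) were also called lower in WT after salt, and no marker was called lower in *agb1*. Over all 25207 genes 2835 were called lower in WT and 178 in *agb1*. In *agb1* the non-hair marker differed by −0.63, the root cap markers by −0.33 to 0.58 and the cortex markers by −0.74 and 0.47. The root hair markers, called in neither genotype, had a median of −1.65 in *agb1* and −1.01 in WT. The shoot markers summed to 9.61 to 15.1 at *agb1* 4 h and 6.88 to 20.1 at WT 4 h. The part of these shifts in the Casparian strip genes was not tested.

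Apart from *SGN3*, the genes varied together over the 11 samples. No median is given for pairs of other genes. The Pearson correlation had a median of 0.685 over the 36 pairs, a description over samples that share the 4 groups, and ranged from −0.12 for *CASP1* with *SGN3* to 0.94 for *CASP1* with *ESB1*. Without *SGN3* it ranged from 0.32 to 0.94 with a median of 0.77, whereas *SGN3* had a median of 0.195 with the other 8 genes. After the group means were taken out, the median was 0.61 over the 28 pairs without *SGN3* and −0.55 over the 8 pairs with it. *CASP4* also stood apart there, with a correlation below 0 in 6 of its 7 pairs without *SGN3*, among them −0.67 with *CASP5* and −0.65 with *SGN1*, and 0.69 with *SGN3*. Of the 21 pairs without either gene 1 was below 0, and their median was 0.72. Against the mean of the 4 *CASP* genes, *MYB36* reached 0.94, *SGN1* 0.85, *ESB1* 0.84, *PER64* 0.77 and *SGN3* 0.36.

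Outside the set, the 5 genes most like the mean of these 4 *CASP* genes among 19335 candidates that were well above background on all arrays were AT4G05170 (r = 0.968 over 11 samples), AT1G80320 (0.968), AT3G60850 (0.966), AT1G43140 (0.963) and *MYB33* (0.962). AT4G05170 had log2 signals of −0.71, −0.89 and −1.19 on the *agb1* 4 h arrays and −2.28, −2.27 and −2.61 on the *agb1* 0 h arrays. Its WT values were −0.51, −0.57 and −0.86 at WT 4 h and −1.92, −1.51 and −1.92 at WT 0 h. Its 4 h arrays thus stood above its 0 h arrays in both genotypes, with differences of 1.51 in *agb1* and 1.14 in WT. *MYB33*, a MYB transcription factor, had smaller differences of 0.41 in *agb1* and 0.32 in WT. These genes were picked as the highest of many correlations, and the values are a description.

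Of 23 other genes of the Casparian strip pathway, among them peptide precursors, oxidases, peroxidases and laccases, 22 were tested. In *agb1* 2 were called after salt, both higher, where 1.41% of all genes were called higher. They were AT4G13580 (0.84, adjusted p = 0.0446) and AT3G24020 (0.76, adjusted p = 0.0495), and AT2G39430 followed at 0.97 (adjusted p = 0.0548). In WT 2 were called higher, AT5G66390, a peroxidase gene (0.79, adjusted p = 0.0167), and the laccase gene *LAC13* (1.78, adjusted p = 0.0174), and 1 was called lower, AT4G11290 (−1.23, adjusted p = 0.00273), where 8.84% of all genes were called higher and 11.2% lower. The list median was 0.28 in *agb1* and 0.07 in WT, smaller than that of the 9 genes in both genotypes. Between the genotypes AT4G11290 was the 1 gene called at 4 h, higher in *agb1* by 1.18 (adjusted p = 0.0161), followed by *SBT4.12* at 0.56 (adjusted p = 0.0793) and *LAC13* at −1.38 (adjusted p = 0.157). At 0 h 0 were called, and 15 of the 22 lay below 0 with a median of −0.35. Of all genes 1.65% were called at 4 h and 1.88% at 0 h. *GSO2*, the close relative of *SGN3*, was not called in either comparison, with −0.59 after salt (adjusted p = 0.212) and −0.57 before it (adjusted p = 0.207), and it was chosen for mention after its values were seen. The count in *agb1* was 0 when any 1 WT 0 h array was left out. The same held without replicate 1 or 2 of WT 4 h or of *agb1* 4 h. It was 1 without *agb1* 0 h replicate 2 (2.09% of all genes called) and 4 without WT 4 h replicate 3 (5.11%). With 12 samples it was 7, where 13.1% of all genes were called. It was also 0 with normexp correction, without a filter, with only the groups compared and with the slide or replicate block, and 1 with the filter on all arrays. That in WT was 1 without replicate 1 or 2 of WT 0 h (10.4% and 10.9% of all genes called) and with the slide block (5.65%). It was 5 with only the groups compared (19.5%). The call at 4 h was lost with normexp correction, with only the groups compared, when WT 4 h replicate 2 or replicate 3 of *agb1* 4 h was left out, and in a fit of only the 4 h arrays with a replicate block, an alternative added after the data had been seen. With 12 samples 2 were called higher at 4 h and 2 lower at 0 h, where 2.36% and 8.91% of all genes were called.

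The 6 regulators of endodermal fate act before the strip is built. None was called for the salt response in *agb1*, with a median of 0.07, whereas in WT 3 were called lower and 1 higher, with a median of −0.42. Over all genes lower calls outnumbered higher ones too, at 11.2% and 8.84%. *SCR*, a GRAS-family regulator that specifies the endodermis, was lower by −0.73 (adjusted p = 0.0306), and *JKD*, a zinc finger partner of SCR, by −0.49 (adjusted p = 0.04), while the zinc finger gene *MGP* was higher by 0.69 (adjusted p = 0.02). These 4 calls shrank to 0 to 2 when any 1 WT array or *agb1* 4 h replicate 3 was left out, to 1 with normexp correction, to 2 without a filter and to 0 with the slide block. Neither at 4 h nor at 0 h was any of the 6 called between *agb1* and WT in the fit of 11 samples. With 12 samples 2 were called lower at 0 h, where 8.91% of all genes were called.

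Suberin is a second barrier of the endodermis, laid down over the cell surface after the strip, and 5 of 6 genes of the suberised endodermis were tested. In *agb1* 0 of the 5 were called after salt, with a median of 0.19 and values of −0.48 to 0.99, where 2.11% of all genes were called. In WT all 5 were called higher, with a median of 2.93 and values of 2.12 to 4.01. Of all genes 20.1% were called in WT, and 8.84% were called higher. The largest in WT were *KCS2*, which encodes a fatty acid elongase (4.01, adjusted p = 0.000296), and *GPAT5*, which encodes an acyltransferase (3.33, adjusted p = 0.00133). No single array, when left out, took the count in WT below 4. After 4 h 2 were called lower in *agb1* than in WT, where 1.65% of all genes were called in either direction. They were *GPAT5* at −2.33 (adjusted p = 0.0317) and *RWP1* at −1.62 (adjusted p = 0.0445), and *KCS2* followed at −1.76 (adjusted p = 0.0559). The count at 4 h was 0 in the same fit of only the 4 h arrays, with normexp correction, with only the groups compared and with the slide block. It was 1 without a filter (0.88% of all genes called) and 4 with 12 samples (2.36%). It was 4 when WT 4 h replicate 1 was left out (1.34% of all genes) and 1 for *agb1* 4 h replicate 2 (1.09%). It was 0 for each WT 0 h array and each of the other 4 h arrays. At 0 h all 5 differences between *agb1* and WT were above 0, with a median of 0.95 and values of 0.23 to 1.82, and 0 were called. That count was 2 with 12 samples (8.91% of all genes called), 1 with only the groups compared (4.66%) and 1 without *agb1* 4 h replicate 1 (2.66%). The interaction, into which these 0 h differences enter, had a median of −2.74 over the 5 suberin genes, of which 0 were called, compared with 0.56 over the 9 Casparian strip genes. It was called for 2 suberin genes with 12 samples, both lower, where 1.04% of all genes were called, and for 1 without WT 4 h replicate 1 (0.337%).

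**Figure D5:**
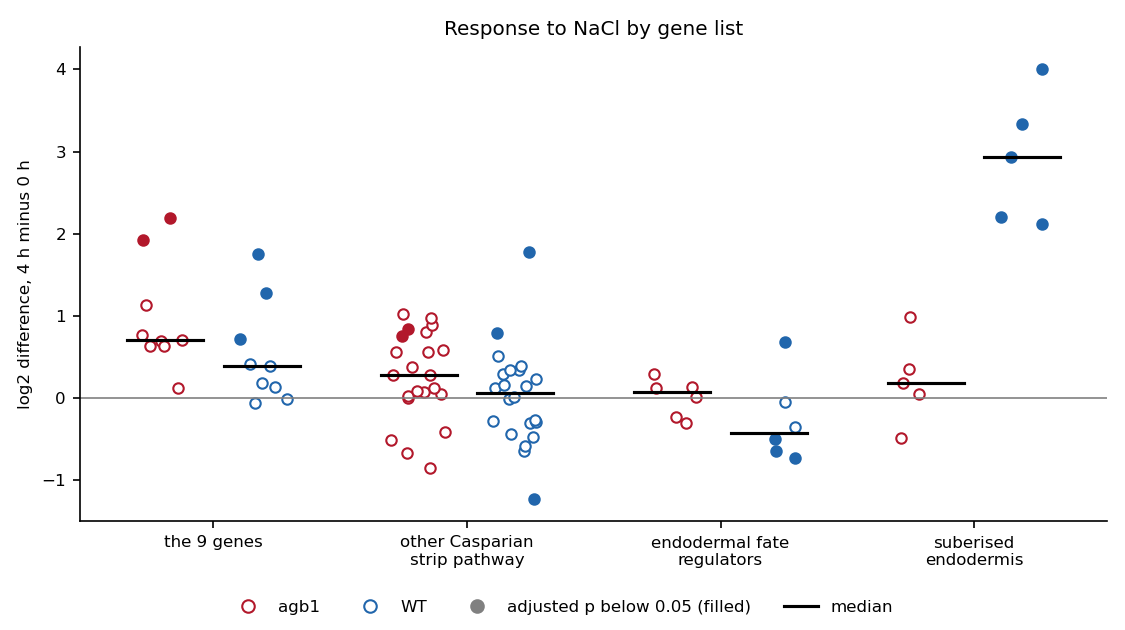
Log2 difference between 4 h and 0 h for the 9 Casparian strip genes and 3 related lists, *agb1* left of WT, with a point per gene, a line at the median and filled points for an adjusted p below 0.05. The medians of the 9 genes are 0.71 in *agb1* and 0.39 in WT, and those of the suberised endodermis are 0.19 in *agb1* and 2.93 in WT.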

How the data were processed

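RNA from whole roots had been labelled with Cy3 and hybridised to single-colour Agilent arrays. The authors deposited one Feature Extraction output per array, in which the processed signal is an intensity corrected for background and not scaled between arrays. The file headers name version 10.7.1.1 and the submitters' processing notes version 9.1, and the labels and the methods name different RNA reagents. The deposited median spot and background intensities were used for the normexp alternative (offset 50). Precision is limited by how few arrays there are. Of the 43803 spots, 74.1% to 76.1% per array exceeded background clearly and 0 were saturated.

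In R 4.3.3 the log2 processed signal minus the array's 75th percentile was computed without control and outlier spots, with repeated spots averaged per probe. The filter kept a probe that was well above background throughout 1 group or more. Loci came from the accessions the files list and from RefSeq names for assembly TAIR10.1 (34358 probes, 25433 loci), and the brightest probe stood for a gene. Coordinates are left out because the probe annotation predates that assembly. The probe sequences were not used here, and cross-hybridisation within the CASP family was not tested. Of the 9 genes 7 had 1 probe and 2 had 2.

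limma 3.58.1 (lmFit and eBayes) was fitted with 4 group means and gave 5 contrasts, with Benjamini-Hochberg adjustment over all genes. The same limma steps were also run on simulated data of independent samples, without averaging. That run did not test the averaging or arrays that deviate together, and no result of it is used here. Replicates 1 and 2 of *agb1* at 0 h were averaged. The scaled median absolute deviation of their log2 differences over 15579 bright probes was 0.084, and that expected from 6 probes with repeated spots was 0.0819, whereas the other 11 pairs of one group stood at 1.52 to 6.01 times their expected value. With the root of a mean variance in place of that deviation, the expected value was 0.148. All 3 pairs of WT 0 h then also fell below theirs (0.179, 0.152 and 0.221, with 0.187, 0.204 and 0.239 expected). Those WT 0 h arrays were nevertheless kept as 3 samples. The condition for averaging had been written as a spread below that of repeated spots, which the *agb1* 0 h pair meets by the second measure and misses narrowly by the first.

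Deviations from the group means of arrays with the same replicate number correlated at 0.582, 0.351 and 0.374 between *agb1* and WT at 4 h, so that the numbers pair those samples, and at −0.197 to 0.212 in the other comparisons.

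The members and gene lists were chosen with earlier results of these data known. Of the 10 loci of the rule 1 is not reported here, and counts, medians and the *CASP* mean leave it out. Named were the other 9 genes, *AGB1*, the list genes with the 3 smallest p-values in a comparison described and the 5 genes most like the *CASP* mean, and *GSO2* was added after its values were seen. Alternatives varied the background correction, scaling, filter, probe rule, samples in the fit and blocks, and left out each array in turn.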

Additional observations from a re-analysis of the deposited data

How the results depend on the processing

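The number of the 9 genes called for the salt response in *agb1* was 2, where 2.11% of all genes were called. It was 0 with normexp correction (0.0714% of all genes), with only the groups compared (0.214%) and with the slide block (0.385%). It was 1 with the replicate block (1.07%) and 7 with 12 arrays as 12 samples (13.1%). With each array left out in turn it was between 0 and 3 (0.524% to 5.11%). In WT the number was 3, where 20.1% of all genes were called. It was 1 with normexp correction (5.72% of all genes) and with the slide block (5.65%), and between 1 and 3 with each array left out (at least 8.81%). For the difference of *agb1* from WT at either time and for the interaction it was 0 under every alternative, and 1 gene at 4 h, 3 genes at 0 h and 1 gene for the interaction passed an unadjusted p of 0.05 in the limma fit of 11 samples. Where a fit keeps a group with 1 sample, that sample is assumed to vary like the others, and the slide block drops WT 0 h replicate 2 in effect.

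Over the 45 differences of single genes, 469 of the values under alternatives other than leaving out an array kept direction and side of the threshold, 5 came to pass it, 11 no longer passed it and 10 changed sign, all of them small and none past the threshold. These were in WT after salt *CASP1* (0.13 with normexp, 0.03 with quantile normalization, 0.03 with the slide block) and *PER64* (0.11 with normexp, 0.05 with quantile normalization, 0.00 with the percentile over probes above background on all arrays), at 4 h *CASP2* (0.00 with median scaling) and *SGN1* (−0.01 with normexp), and in the interaction *MYB36* (−0.04 with normexp, −0.02 with the mean of all probes). With an array left out, signs also changed at 4 h for *CASP1* (−0.15 to 0.44), *CASP2* (−0.25 to 0.20), *CASP5* (−0.07 to 0.48), *ESB1* (−0.13 to 0.31), *MYB36* (−0.26 to 0.05) and *SGN1* (−0.10 to 0.16), in the interaction for *CASP4* (−0.15 to 0.60) and *MYB36* (−0.12 to 0.18), in WT after salt for *CASP1* (−0.17 to 0.07) and *PER64* (−0.07 to 0.09), and for *SGN3* at 0 h (−0.31 to 0.02) and after salt in *agb1* (−0.14 to 0.18).

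Normexp correction moved the median of all genes, to 0.15 for salt in *agb1* (−0.04 in the fit of 11 samples), −0.31 for salt in WT (−0.10), 0.18 at 4 h (0.05), −0.25 at 0 h (0.00) and 0.35 for the interaction (0.05), so that its differences are relative to these. The replicate block, where arrays of the same number deviated together (*agb1* against WT at 4 h), changed no call of the 9 genes. Where arrays of the same number correlated little in their deviations, it lowered the count of all genes called for salt in *agb1* to 270, compared with 533 without it, and at 0 h to 152, compared with 474. *AGB1* at 0 h was not called with normexp correction, without a filter, with only the groups compared, with the slide block or with the replicate block (adjusted p = 0.0522 to 0.188).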
